A study of Populus ussuriensis with 18 samples.

Results

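Roots of Populus ussuriensis seedlings were compared after 48 h in liquid medium with 6% PEG and at 0 h. The comparison rests on 6 of the 18 RNA-seq libraries, with 3 biological replicates at each of the 2 times. They were chosen by their time, and no measured value entered the choice. The columns of the FPKM table carry no times. Those of 0 h and 48 h were given for this comparison. Those of 6, 12, 24 and 120 h were read from the order of the numbers in the column names. The comparisons of 48 h with these times rest on that reading. The seedlings were wild type, grown in tissue culture and about 3 weeks old, and roots of at least 6 of them were joined in each replicate. No seedlings were kept in liquid medium without PEG, so the effect of PEG cannot be told apart from those of the transfer and of 48 h of growth. FPKM are fragments of a transcript corrected for its length and for the depth of the library. The table lists 12994 transcripts, and 12080 with at least 1 FPKM in at least 3 of the 18 libraries were tested. In whole roots, fewer cells of a type and less RNA per cell cannot be told apart.

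PEG is a polymer too large to enter root cells, and it holds back the water of the medium. Roots short of water are known to raise the hormone abscisic acid (ABA), to change the wall and the lignin of their cells, and to make proteins that protect drying membranes and enzymes, such as late embryogenesis abundant (LEA) proteins and dehydrins. They also adjust antioxidant enzymes, because water shortage raises reactive oxygen species.

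Replicate 3 of 48 h stood apart from its group. The FPKM of a library added up to 1094715 to 1107447 at 0 h and to 1108476 to 1126143 at 48 h. On the log2(FPKM + 1) scale, replicates 1 and 2 of 48 h each had a mean correlation of 0.970 with their own group, and replicate 3 had 0.9605, the lowest of the 18 libraries. In replicate 3, 651 transcripts lay at least 1 log2 unit from the mean of the other libraries of 48 h, against 366 in replicate 1 and 362 in replicate 2. For the gene lists, DEG counts that changed without it are therefore given both ways. Markers known from roots were present in all 6 libraries. The 2 transcripts of the nitrate transporter NRT2.1 added up to 555 to 587 FPKM at 0 h and to 90.4 to 324 FPKM at 48 h. The cytochrome P450 CYP86A1, of suberin synthesis, had 64.25 to 67.4 FPKM at 0 h and 35.0 to 93.7 FPKM at 48 h. Transcripts of photosystem and chlorophyll-binding proteins were present too. The 23 of them added up to 2931 to 3038 FPKM at 0 h and to 3904 to 4347 FPKM at 48 h, and none was listed at 0 in all libraries of either time. Their part in the results was not tested.

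At 48 h, 390 transcripts were up-regulated and 224 down-regulated, 3.23% and 1.85% of the transcripts tested and 5.08% together. A transcript was called a differentially expressed gene (DEG) when the adjusted p of limma was under 0.05 and the log2 fold change was 1 or more in size. Most changes were moderate. Of the up-regulated transcripts, 281 had a log2 fold change under 2 and 43 had one of 3 or more, and of the down-regulated, 189 and 9. The median log2 fold change was 1.45 among the up-regulated and -1.35 among the down-regulated, against -0.02 over all transcripts tested. The 3 libraries of 48 h lay wholly above those of 0 h in 360 of the up-regulated and wholly below in 214 of the down-regulated, while 21.3% and 23.8% of all transcripts tested showed such a separation. The up-regulated transcripts had a median of 8.01 FPKM at 0 h and 36.5 at 48 h, and the down-regulated went from 36.1 to 13.4 FPKM. Without the fold minimum, 1925 were higher and 1773 lower at 48 h.

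Leaving out replicate 3 raised the counts to 461 up-regulated and 263 down-regulated, 3.82% and 2.18% of those tested. Of the 390 up-regulated transcripts, 356 (91.3%) were also called without it, and these were 77.2% of the larger list. Of the 224 down-regulated, 197 (87.9%) were, 74.9% of the larger list. Replicate 3 was the library of 48 h with the smallest distance from 0 h in 217 of the up-regulated (55.6%) and in 130 of the down-regulated (58.0%). It was the farthest from 0 h in 147 and 62 of them.

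Protein names came from the part of the study's annotation that was at hand. They covered 744 of the transcripts in the FPKM table, among them 91 of the up-regulated and 67 of the down-regulated. The paper reports far more annotated genes than this, so rankings of named transcripts cover only the names at hand. The transcripts with the largest rises had no name in that part. The transcript f2p60_989_301890 had 175.9, 167.1 and 99.4 FPKM in replicates 1, 2 and 3 of 48 h and a mean of 0.267 FPKM at 0 h, which made a log2 fold change of 6.83 (standard error, SE, 0.37, adjusted p = 5.2e-09). The transcript f3p37_1363_26310 had 1426, 1434 and 529 FPKM at 48 h and a mean of 12.3 at 0 h, with 6.27 (SE 0.31, adjusted p = 1.9e-09). In both, replicate 3 was the lowest library of 48 h and still far above 0 h. The largest falls without a name were in transcripts of 208 and 259 bp, and short transcripts varied most. The replicate SD of 48 h had a median of 0.89 on the log2 scale under 300 bp and of 0.093 at 1000 bp or longer.

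Among named transcripts, the largest rises were in a pirin-like transcript, a protease inhibitor and a glucosyltransferase. Wall proteins, a detoxifying reductase, a desiccation-related protein and a lipid-transfer protein followed. The Kunitz-type trypsin inhibitor C5 (f2p60_374_37875), of a family that blocks protein-digesting enzymes, had 3.61, 4.61 and 3.74 FPKM at 0 h and 105.1, 94.9 and 90.2 at 48 h. The rise was 4.29 on the log2 scale (SE 0.22, adjusted p = 1.9e-09). The NADPH-dependent alkenal/one oxidoreductase (f7p60_1528_6951), a chloroplast enzyme that reduces reactive carbonyls from oxidized lipids, had 7.47, 8.90 and 7.70 FPKM at 0 h and 72.8, 70.3 and 74.7 at 48 h. The 3 libraries of 48 h were close to each other in both genes, and the change of the second was 3.03 (SE 0.11, adjusted p = 3.3e-11). The desiccation-related protein PCC3-06 (f2p60_983_30209), a name that comes from a resurrection plant, had 8.63, 9.29 and 10.7 FPKM at 0 h and 97.3, 94.9 and 26.9 at 48 h. Here replicate 3 reached less than the others, and the change of 2.61 (SE 0.34, adjusted p = 4.1e-05) was 3.21 without it. A transcript of a hydroquinone glucosyltransferase (f2p60_277_17204), an enzyme that joins glucose to phenolics, has 277 bp and is thus among the short ones that varied most. It was listed at 0 in the 3 libraries of 0 h and had 23.9, 16.8 and 13.3 FPKM at 48 h. Its change was 4.21 (SE 0.50, adjusted p = 1.8e-05). A pirin-like transcript of 247 bp (f2p54_247_39388) had 3.62, 0 and 0 FPKM at 0 h and 32.1, 46.6 and 76.8 at 48 h, with 4.90 (SE 0.57, adjusted p = 1.4e-05).

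The largest named falls were in a peroxidase, an ABA receptor, a low-oxygen regulator and an enzyme of ethylene synthesis. PER5 (f4p60_1269_8729), a class III peroxidase, had 72.9, 70.3 and 67.9 FPKM at 0 h and 3.30, 2.25 and 8.35 at 48 h, a change of -3.81 on the log2 scale (SE 0.26, adjusted p = 5.8e-08). The paper lists this transcript with a rise at 48 h, opposite in sign to the fall here. The printed value lies near the change of 2.40 that PER4 (f2p59_1311_26810) had here. Whether it belongs to PER5 was not tested. The probable dioxygenase AOP1.2 (f3p60_1294_26869) had 467.6, 504.6 and 462.2 FPKM at 0 h and 45.3, 45.8 and 199.96 at 48 h, with -2.66 (SE 0.38, adjusted p = 1.0e-04) and -3.36 without replicate 3. The receptor kinase FLS2 (f2p59_3771_622), which senses bacterial flagellin, had 22.2, 23.9 and 23.8 FPKM at 0 h and 4.40, 4.54 and 7.93 at 48 h, with -1.92 (SE 0.21, adjusted p = 5.8e-06). In each of these 3 genes replicate 3 lay above the other libraries of 48 h and below every library of 0 h.

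**Figure D1:**
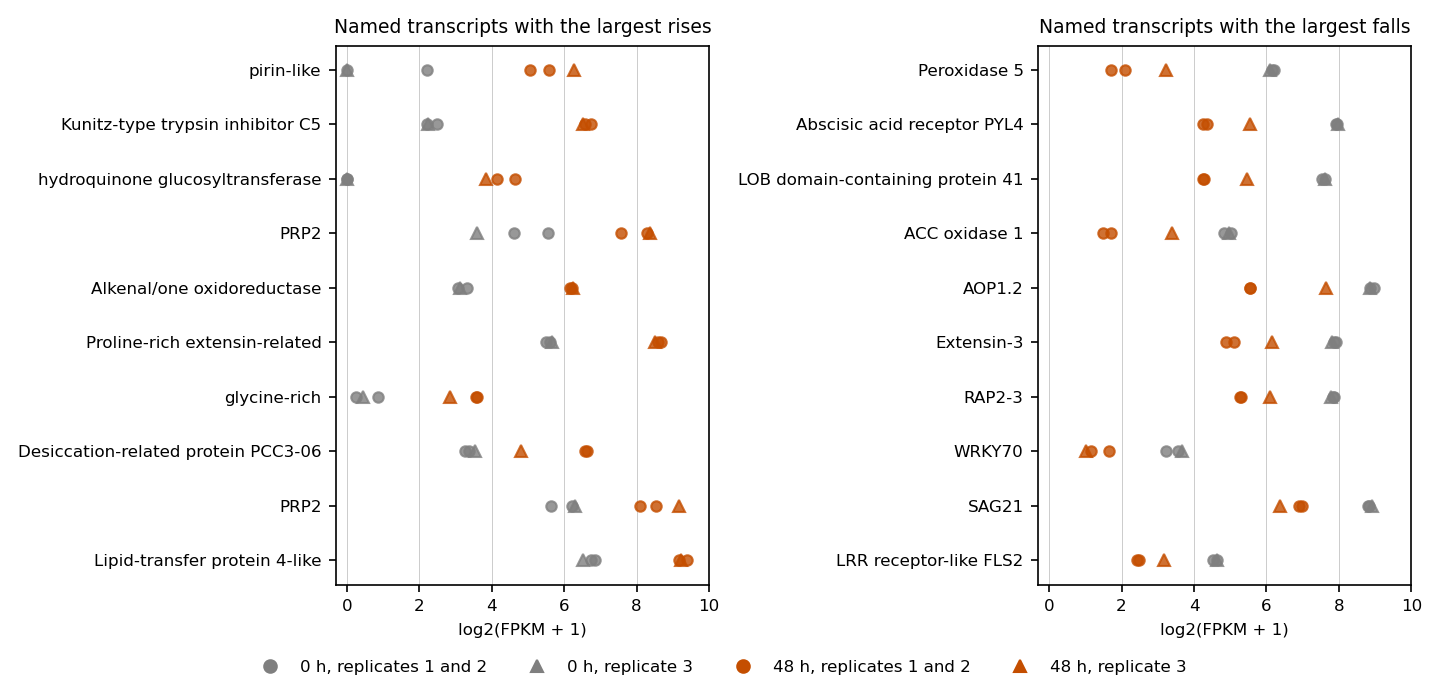
Expression of the 10 named transcripts with the largest rises and the 10 with the largest falls at 48 h, as log2(FPKM + 1) on the horizontal axis, with 1 point for each of the 3 libraries of 0 h (grey) and of 48 h (orange) and a triangle for replicate 3. The 2 times do not overlap in any of the 20, and replicate 3 of 48 h lies toward 0 h in 8 of the 10 falls, such as Peroxidase 5 with 8.35 FPKM against 3.30 and 2.25.

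Structural wall proteins had rises and falls of similar number. They are proteins that are locked into the wall between cellulose and pectin. Of 20 tested, 6 rose and 5 fell, with a median log2 fold change of -0.03, and the counts were 6 and 6 without replicate 3. The list was picked from a table of DEGs of these same samples, so its counts are not independent evidence of a direction. A repetitive proline-rich cell wall protein, PRP2 (f3p60_1008_29997), had 23.6, 46.0 and 11.2 FPKM at 0 h and 189.2, 308.6 and 329.0 at 48 h, with 3.48 (SE 0.42, adjusted p = 2.0e-05). The proline-rich extensin-related protein f9p60_914_11928 had 43.95, 48.1 and 49.4 FPKM at 0 h and 383.5, 407.3 and 363.1 at 48 h, with 3.00 (SE 0.09, adjusted p = 6.6e-12). The glycine-rich protein f2p60_619_34924 went from 0.463 ± 0.330 to 9.34 ± 2.76 FPKM (SD, n = 3), with 2.80 (SE 0.20, adjusted p = 7.7e-08). Extensin-3 (f6p60_1064_29342) had 243.1, 234.1 and 222.6 FPKM at 0 h and 28.8, 33.5 and 70.4 at 48 h, and its change was -2.48 (SE 0.23, adjusted p = 1.5e-06). An extensin-2-like transcript (f2p60_3860_557) changed by -1.81, while another extensin-3 transcript (f2p60_1680_23978) had 2043 FPKM at 0 h and 2232 at 48 h (adjusted p = 0.513).

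Lipid-transfer proteins, small secreted proteins that carry lipids and are linked to cuticle and wall, had 6 of 7 tested transcripts up-regulated and 1 down-regulated, also without replicate 3. The median log2 fold change was 1.96. This list too was picked from the table of DEGs. The transcript f2p60_872_31557 had 115.4, 106.8 and 90.3 FPKM at 0 h and 671.1, 577.4 and 601.7 at 48 h, with 2.56 (SE 0.12, adjusted p = 4.5e-10). The transcript f4p60_771_32886 had 217.6, 198.2 and 218.5 FPKM at 0 h and 1020, 1048 and 1019 at 48 h, with 2.28 (SE 0.06, adjusted p = 9.4e-13). The member that fell (f4p60_914_11906) had 72.0, 56.6 and 206.2 FPKM at 48 h against 218.2, 216.7 and 227.9 at 0 h, and replicate 3 lay just below the range of 0 h.

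**Figure D2:**
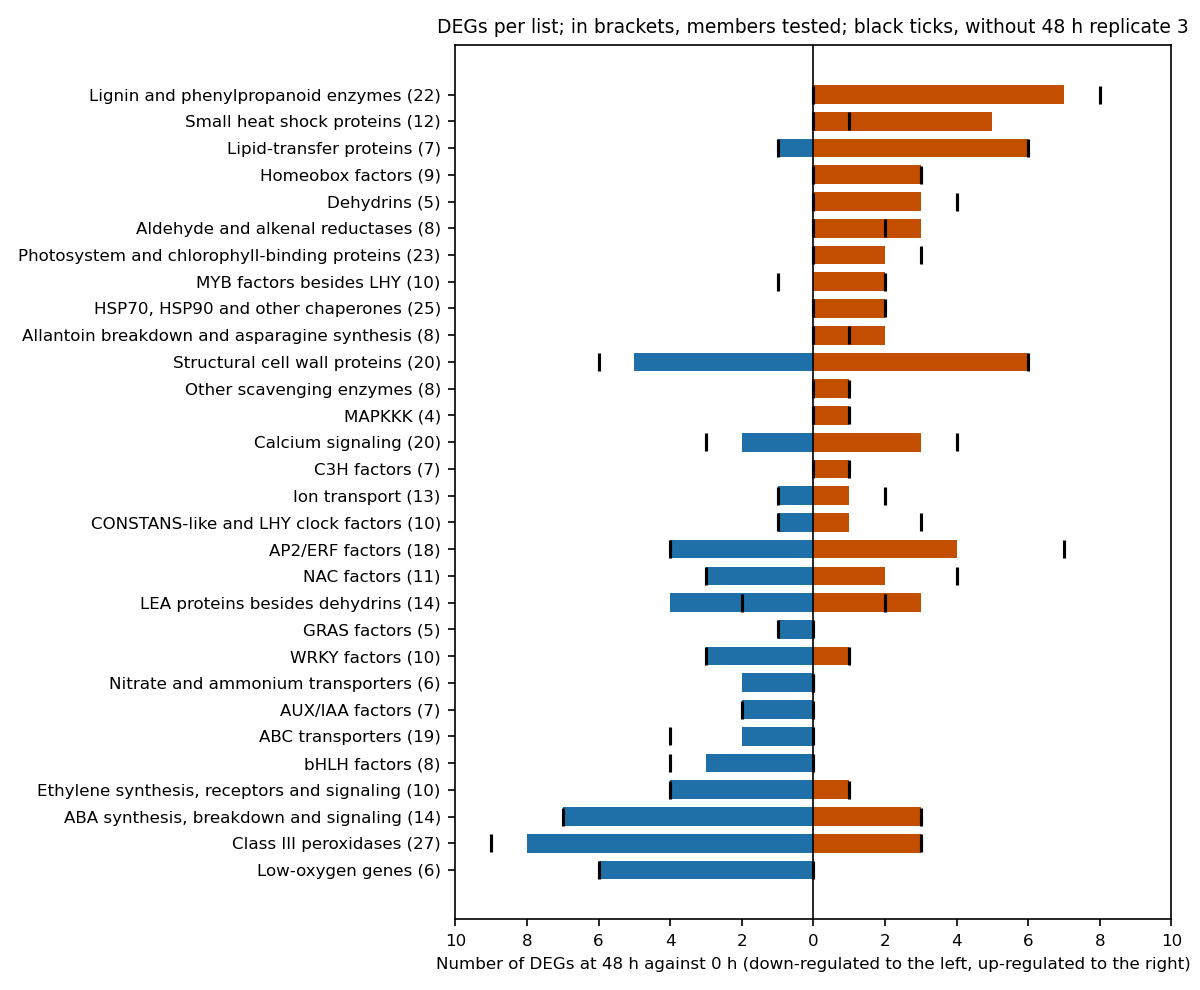
Number of DEGs at 48 h against 0 h in each of the 30 lists that hold any, with down-regulated transcripts to the left and up-regulated to the right, the members tested in brackets and black ticks for the counts without replicate 3 of 48 h. Low-oxygen genes have 6 falls of 6 tested and lipid-transfer proteins 6 rises of 7, while the 5 rises of small heat shock proteins drop to 1 without replicate 3.

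The ABA pathway had more falls than rises, and the receptors fell. Of the 14 transcripts that the study lists for ABA, 3 rose and 7 fell, the same counts without replicate 3, with a median log2 fold change of -0.57. The study chose this list, and its other lists named below, from DEGs of these samples, so the counts are not independent evidence of a direction. The ABA receptor PYL4 (f2p60_1246_27481), whose family binds ABA and holds back protein phosphatases 2C, had 243.9, 241.0 and 249.0 FPKM at 0 h and 18.2, 19.4 and 45.3 at 48 h, a change of -3.23 (SE 0.23, adjusted p = 7.0e-08). The second PYL4 transcript (f2p49_1112_10090) had 37.1, 44.4 and 51.1 FPKM at 0 h and 19.1, 12.5 and 9.95 at 48 h, with -1.64 (SE 0.22, adjusted p = 4.8e-05). A further PYL4 transcript (f2p60_1117_287682) and PYL6 (f2p60_1249_27389) changed by -1.53 and -1.14. The ABA-degrading 8'-hydroxylase (f4p60_2036_4219) changed by -1.49 (adjusted p = 1.1e-06).

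The 3 rises were in a carotenoid-cleaving enzyme, an enzyme of the carotenoid pathway that leads to ABA, and a phosphatase. The carotenoid cleavage dioxygenase CCD4 (f7p60_2153_21415) had 6.75, 5.61 and 5.36 FPKM at 0 h and 20.1, 22.4 and 20.4 at 48 h, with 1.68 (SE 0.18, adjusted p = 4.7e-06). The zeaxanthin epoxidase f7p60_892_12070 changed by 1.36 (adjusted p = 2.2e-04) and the protein phosphatase 2C f2p60_1754_23479 by 1.60 (adjusted p = 1.0e-07). NCED3 (f2p21_2499_2742, annotated as NCED1), the rate-limiting enzyme of ABA synthesis, had 0.52, 0.44 and 0.42 FPKM at 0 h and 1.08, 0.90 and 0.50 at 48 h. Its change of 0.31 (SE 0.16, adjusted p = 0.174) did not pass the test, and replicate 3 fell within the range of 0 h.

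The lists of calcium signaling, MAPKKKs and ion transport had 5 of 20, 1 of 4 and 2 of 13 members called, against 5.08% of all transcripts tested. Of the 20 calcium-signaling transcripts of the study, 3 rose and 2 fell, and without replicate 3 4 rose and 3 fell. A transcript that the paper names calcium-dependent protein kinase 1 (f2p60_482_36687) had 2.89, 1.73 and 3.33 FPKM at 0 h and 17.6, 18.4 and 12.6 at 48 h, with 2.24 (SE 0.29, adjusted p = 3.1e-05). The paper lists it with a negative change at 48 h, and whether the printed value belongs to this transcript was not tested. CML38 (f2p30_1011_11035), a calmodulin-like calcium sensor, had 8.06, 7.93 and 8.01 FPKM at 0 h and 21.6, 22.9 and 14.2 at 48 h, with 1.165 (SE 0.27, adjusted p = 0.00423). The calcium-binding proteins PBP1 (f2p60_745_332685) and KIC (f2p60_444_16225) changed by -1.64 (adjusted p = 7.1e-04) and -1.51 (adjusted p = 9.8e-06). PBP1 binds a regulator of auxin transport and KIC a kinesin in Arabidopsis.

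The MAPKKK list, kinases at the head of MAP kinase cascades, had 1 rise among 4, without support from replicate 3. It was a MAPKKK17 transcript (f4p60_1325_8326) with 0.41, 0.22 and 0.59 FPKM at 0 h and 3.64, 2.88 and 0.51 at 48 h, a change of 1.10 (SE 0.33, adjusted p = 0.019) and of 1.6 without replicate 3. It was not called when 0 h replicate 2, 48 h replicate 1 or 48 h replicate 2 was left out (adjusted p of 0.0669, 0.102 and 0.0861). MAPKKK18 (f5p60_1300_26955) had 7.56, 7.53 and 8.01 FPKM at 0 h and 7.77, 8.09 and 12.2 at 48 h, and its change of 0.22 (adjusted p = 0.296) did not pass. Of 13 ion transport transcripts, 1 rose and 1 fell, and 2 rose and 1 fell without replicate 3. The cation/calcium exchanger CCX1 (f3p60_1980_22126, called CAX7 by the study) had 1.37, 0.75 and 0.81 FPKM at 0 h and 5.33, 5.77 and 2.74 at 48 h, with 1.47 (SE 0.21, adjusted p = 7.1e-05). A glutamate receptor channel (f2p55_3201_1361) had 5.48, 5.71 and 4.91 FPKM at 0 h and 1.51, 1.38 and 1.34 at 48 h, with -1.40 (SE 0.24, adjusted p = 3.4e-04). The potassium transporter KT2 (f7p60_2856_19557) and the sodium/calcium exchanger NCL (f2p60_2293_3245) had separate groups but changes of 0.44 (adjusted p = 9.8e-05) and -0.20 (adjusted p = 0.00173), below the fold minimum.

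Class III peroxidases, secreted enzymes that use hydrogen peroxide to stiffen walls and couple lignin, had 3 rises and 8 falls among 27 in the study's list. Without replicate 3 the counts were 3 and 9, and the median was -0.75. PER4 (f2p59_1311_26810) had 9.86, 6.65 and 8.20 FPKM at 0 h and 38.2, 39.8 and 69.3 at 48 h, with 2.40 (SE 0.17, adjusted p = 9.3e-08). PER15 (f2p60_1233_9008) and PER21 (f21p60_1261_27184) changed by 1.49 and 1.22. PER64 (f2p60_1352_8044) had 63.6, 66.0 and 65.6 FPKM at 0 h and 10.5, 8.96 and 46.2 at 48 h, with -1.91 (SE 0.40, adjusted p = 0.00208) and -2.63 without replicate 3. Replicate 3 thus held most of the 0 h level of PER64, replicates 1 and 2 were far below it, and the fit of the 6 libraries alone gave an adjusted p of 0.0629.

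None of the 20 glutathione S-transferases (GSTs) of the study's list, enzymes that join glutathione to reactive compounds, was a DEG at 48 h by limma. At an unadjusted p under 0.05 with the fold minimum, 0 were higher and 1 lower. By adjusted p alone 7 were higher and 0 lower, against 15.9% and 14.7% of all transcripts tested. Without replicate 3 the counts were 1 rise and 4 falls. A transcript named GST23 (f2p60_903_31165) had 34.9, 29.1 and 31.9 FPKM at 0 h and 11.6, 13.3 and 71.9 at 48 h. Replicates 1 and 2 lay below every library of 0 h and replicate 3 above them. The parC-type GSTXC (f2p60_894_312621) had 13.4, 15.0 and 12.1 FPKM at 0 h and 7.62, 7.55 and 23.7 at 48 h, with a change of -0.24 (SE 0.29, adjusted p = 0.571). Among 8 other scavenging enzymes, 1 rose, the chloroplast peroxiredoxin Q (f2p60_993_30125), which removes peroxides and went from 34.6, 37.8 and 35.5 to 94.2, 91.1 and 94.9 FPKM, with 1.35 (SE 0.16, adjusted p = 1.5e-05). The superoxide dismutase SODC (f2p28_837_12827) had 56.7, 37.9 and 39.4 FPKM at 0 h and 37.8, 41.7 and 64.4 at 48 h (adjusted p = 0.798), and the groups overlapped.

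Of the 12 small heat shock proteins, chaperones that hold unfolding proteins, 5 rose and 0 fell, but 1 of the 5 was called without replicate 3. The 5 were class I members. The member that was called in both cases (f3p60_839_12609) had 6.22, 6.41 and 5.29 FPKM at 0 h and 14.9, 14.8 and 40.1 at 48 h, with 1.65 (SE 0.28, adjusted p = 4.3e-04) and 1.19 without replicate 3. Another (f3p60_787_32671) had 5.31, 6.67 and 6.07 FPKM at 0 h and 8.48, 12.6 and 42.2 at 48 h, with 1.34 (SE 0.38, adjusted p = 0.0143) and 0.70 without replicate 3. In 7 of the 12 replicate 3 lay at least 1 log2 unit above both other libraries of 48 h, and in 0 below. Of 25 larger chaperones and co-chaperones 2 rose and 0 fell, with a median of 0.07. Both were DNJ11 transcripts of a small chloroplast co-chaperone. The first (f2p60_820_32228) had 9.74, 6.46 and 8.17 FPKM at 0 h and 33.9, 34.0 and 31.2 at 48 h, with 1.92 (SE 0.12, adjusted p = 1.7e-08), and the second (f3p60_810_32354) changed by 1.36 (adjusted p = 3.6e-07).

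LEA proteins went both ways and dehydrins, LEA proteins that bind water and membranes, rose or did not pass the test. Of 14 LEA transcripts besides dehydrins in the study's list, 3 rose and 4 fell, and without replicate 3 2 rose and 2 fell. LEA29 (f2p37_1282_27056) had 17.1, 17.5 and 16.4 FPKM at 0 h and 48.9, 51.6 and 30.03 at 48 h, with 1.27 (SE 0.16, adjusted p = 2.5e-05). SAG21 (f2p60_765_32980), a mitochondrial LEA protein, had 455.7, 443.8 and 484.3 FPKM at 0 h and 126.5, 118.7 and 81.2 at 48 h, with -2.10 (SE 0.14, adjusted p = 3.4e-08). Of 5 dehydrins, 3 rose, and 4 without replicate 3. The most abundant of them (f8p60_825_32305, annotated as SRC1) had 594.2, 501.2 and 548.9 FPKM at 0 h and 1509, 1546 and 1191 at 48 h, with 1.36 (SE 0.11, adjusted p = 3.3e-07). RAB18 (f2p60_1369_7946, also annotated as SRC1) had 4.47, 3.44 and 3.67 FPKM at 0 h and 18.5, 18.1 and 6.68 at 48 h, with 1.55 (SE 0.33, adjusted p = 0.0025).

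Enzymes of the phenylpropanoid pathway, which makes lignin units from phenylalanine, had rises but no falls among the DEGs. Of 22 in the study's list 7 rose and 0 fell, 8 and 0 without replicate 3, with a median of 0.80, and 18 were higher by adjusted p alone and 0 lower. Of all transcripts tested, 15.9% were higher and 14.7% lower by that rule. Cinnamoyl-CoA reductase CCR1 (f2p60_1466_7341), the first enzyme of the branch to lignin, had 141.5, 157.4 and 151.9 FPKM at 0 h and 369.8, 357.6 and 320.6 at 48 h, with 1.21 (SE 0.06, adjusted p = 4.3e-10). The cinnamyl alcohol dehydrogenase CAD9 (f6p60_1412_25819) had 4.25, 2.79 and 3.02 FPKM at 0 h and 12.9, 12.5 and 12.3 at 48 h, with 1.65 (SE 0.11, adjusted p = 2.5e-08). Phenylalanine ammonia-lyase, the entry enzyme, had 1 rise (f3p60_2656_2364), with a change of 1.14 (adjusted p = 3.4e-09), while its most abundant transcript (f2p54_2528_20310) had 377 and 361 FPKM at the 2 times (adjusted p = 0.631). The rise of a CYP98A2 transcript (f2p60_653_34474), with 5.70, 4.84 and 1.38 FPKM at 48 h against 1.2, 1.42 and 0.49 at 0 h, did not pass in the fit of the 6 libraries alone (adjusted p = 0.106). It was also lost without replicate 1 or 3 of 0 h (adjusted p of 0.054 and 0.12) and without replicate 1 or 2 of 48 h (0.134 and 0.115).

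Ethylene genes had more falls than rises, in a list chosen with earlier results of these data known. ACC oxidases form ethylene, and the transcript ACO1 (f2p53_1118_9998) had 31.7, 27.7 and 30.2 FPKM at 0 h and 1.78, 2.28 and 9.51 at 48 h, with -2.75 (SE 0.33, adjusted p = 2.0e-05). A different ACC oxidase (f5p60_1401_7689) went from 1.76, 2.19 and 2.15 to 7.37, 6.87 and 6.32 FPKM, with 1.37 (SE 0.08, adjusted p = 9.8e-09). Both ETR2 transcripts, which encode an ethylene receptor, fell, by 1.34 (f2p60_2609_20102, adjusted p = 1.5e-05) and 1.09 (f5p60_3035_1622, adjusted p = 2.1e-08) on the log2 scale. In all, 1 of 10 rose and 4 fell, against 3.23% and 1.85% of all transcripts tested. The 2 transcripts of the signal protein EIN2 (f2p22_4916_101 and f2p47_4809_124) had changes of -0.09 and -0.03.

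The low-oxygen genes, picked from tables of DEGs of these samples, fell in 6 of 6 cases, also without replicate 3, with a median of -1.86. LBD41 (f5p60_1318_8262), which low oxygen induces in Arabidopsis, had 184.7, 197.0 and 196.5 FPKM at 0 h and 18.5, 18.0 and 42.8 at 48 h, with -2.93 (SE 0.27, adjusted p = 1.3e-06). RAP2-3, an ethylene response factor of the group that is stable only at low oxygen in Arabidopsis, fell in 3 transcripts. The first (f3p60_1327_26651) had 232.9, 226.5 and 221.0 FPKM at 0 h and 37.4, 38.6 and 67.4 at 48 h, with -2.28 (SE 0.17, adjusted p = 9.9e-08), and the others (f2p60_1381_26225 and f3p60_1128_28605) changed by -1.87 and -1.85. The ADH1 transcripts, of the enzyme that ends ethanol fermentation, changed by -1.41 (f2p60_869_31612, adjusted p = 1.3e-04) and -1.23 (f2p60_1559_24796, adjusted p = 0.00247). RSEM divides reads among similar isoforms, so the split of a change among near-identical transcripts such as those of RAP2-3 is uncertain.

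Transcription factors of the study's lists differed by family. Of 18 AP2/ERF factors tested, 4 rose and 4 fell, and without replicate 3 7 rose and 4 fell. Besides the RAP2-3 transcripts, ERF106 fell, and the rises were in ERF5 (f2p60_1376_26205, with 1.36 and adjusted p = 1.1e-08) and in 3 ERF017 transcripts. The most abundant ERF017 transcript at 48 h (f13p60_1056_30338) had 0.21, 0.38 and 0.81 FPKM at 0 h and 7.62, 7.31 and 0.39 at 48 h. Replicate 3 of 48 h thus lay within the range of 0 h, in this and in the other ERF017 transcripts called.

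Of 10 WRKY factors, 1 rose and 3 fell. WRKY70 (f2p50_1323_8348), a regulator of defence in Arabidopsis, had 10.8, 8.43 and 11.7 FPKM at 0 h and 1.24, 2.13 and 1.02 at 48 h, with -2.21 (SE 0.23, adjusted p = 3.5e-06). WRKY75 (f2p37_1325_26690) had 1.02, 1.35 and 1.72 FPKM at 0 h and 10.2, 11.9 and 1.53 at 48 h, with 1.61 (SE 0.42, adjusted p = 0.00849), and its groups overlapped through replicate 3. In the fit of the 6 libraries alone its adjusted p was 0.121. Of 11 NAC factors, 2 rose and 3 fell, and without replicate 3 4 rose and 3 fell. Those called with all libraries include an RD26-type NAC72 transcript (f2p60_1426_25757) with 1.09 (adjusted p = 1.8e-05, and 0.95 without 48 h replicate 1) and NAC35 (f2p60_1228_9087) with -1.28 (adjusted p = 6.1e-04).

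Of 9 homeobox factors, 3 rose and 0 fell, including SBH1 (f2p60_1398_7750), a factor of the KNOX group that keeps meristem cells undifferentiated, with 0.53, 0.21 and 0.30 FPKM at 0 h and 2.63, 2.80 and 3.01 at 48 h (change of 1.51, adjusted p = 2.6e-05). Of 10 MYB factors, 2 rose and 0 fell, 2 and 1 without replicate 3. MYB58 (f3p60_1224_9210), an activator of lignin genes in Arabidopsis, had 2.27, 1.87 and 2.28 FPKM at 0 h and 7.96, 7.86 and 12.2 at 48 h, with 1.70 (SE 0.12, adjusted p = 7.9e-08). In the other families the calls were falls of AUX28 (f2p60_1238_27497) and IAA14 (f2p60_1260_27281) among 7 AUX/IAA repressors of auxin signaling, with -1.18 and -1.12 (the second -0.97 without 48 h replicate 2), and of 3 of 8 bHLH factors (4 without replicate 3), led by ILR3 (f2p60_450_37002) with -1.58 (adjusted p = 0.0357). ILR3 was not called when any replicate of 0 h was left out (adjusted p of 0.0691, 0.0825 and 0.0894) or without 48 h replicate 2 (0.146). Among 10 CONSTANS-like and LHY factors, the B-box protein BBX30 (f3p60_1089_29115) rose by 1.46 and CONSTANS-LIKE 3 (f2p60_1604_24470) fell by 1.196 on the log2 scale. Without replicate 3, 3 rose and 1 fell. Of 5 GRAS factors 1 fell, and of 7 C3H factors 1 rose.

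Nitrogen, detoxification and chloroplast lists held a few DEGs each. These lists too were chosen with earlier results of these data known, so their counts are not independent evidence of a direction. Of 6 nitrate and ammonium transporters, 2 fell and 0 rose, and without replicate 3 0 passed in either direction. Both were transcripts of NRT2.1, the high-affinity nitrate carrier of roots. The more abundant (f2p60_1894_22575) had 447.8, 463.7 and 464.9 FPKM at 0 h and 246.6, 245.3 and 70.2 at 48 h, with -1.495 (SE 0.35, adjusted p = 0.00496) and -0.90 without replicate 3, when the adjusted p was 8.5e-04 and the fold minimum was missed. Of 8 transcripts of allantoin breakdown and asparagine synthesis, 2 rose and 0 fell, 1 and 0 without replicate 3. Asparagine synthetase (f2p60_2377_3136), which stores nitrogen as asparagine, had 53.1, 59.9 and 55.7 FPKM at 0 h and 141.6, 141.6 and 206.5 at 48 h, with 1.499 (SE 0.16, adjusted p = 5.2e-06). A second asparagine synthetase transcript (f3p60_476_36812) changed by 1.05 (adjusted p = 4.8e-04), and by 0.95 without replicate 3, below the fold minimum. Of 8 aldehyde and alkenal reductases, 3 rose and 0 fell, 2 and 0 without replicate 3, and of 19 ABC transporters, 2 of subfamily A fell, by 1.19 (f2p38_3130_19064) and 1.17 (f3p42_3136_1465) on the log2 scale. Without replicate 3, 4 ABC transporters fell. The added ones were of subfamily G (f4p60_2751_19739 and f2p47_4852_110), with -1.26 and -1.12 against -0.81 and -0.69 with it.

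Of the 23 photosystem and chlorophyll-binding proteins, 2 rose (3 without replicate 3) and 0 fell, with a median of 0.41. By adjusted p alone 14 were higher and 0 lower, against 15.9% and 14.7% of all transcripts tested. A minor antenna protein that binds chlorophyll (f2p60_1040_296752) had 55.6, 54.3 and 56.1 FPKM at 0 h and 169.2, 165.6 and 148.6 at 48 h, with 1.52 (SE 0.10, adjusted p = 2.2e-08). In 10 of the 40 lists no transcript was a DEG by limma, among 120 members tested, and at an unadjusted p under 0.05 with the fold minimum 0 were higher and 1 lower. Besides GSTs these were the C2H2 and MADS factors, very-long-chain fatty acids with wax and suberin, protein folding in the ER, proton pumps, sterol synthesis, pectin synthesis, sulfate assimilation and the shikimate pathway. Without replicate 3, 1 C2H2 factor rose and 1 gene of very-long-chain fatty acids and suberin fell. Over the 40 lists, 66 of 477 members rose and 56 fell, 72 and 64 without replicate 3.

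Replicate 3 of 48 h differed from replicates 1 and 2 in part of the members of several lists. In 209 of the transcripts tested it lay at least 1 log2 unit above both others and in 269 below both, against 73 and 58 for replicate 1 and 80 and 63 for replicate 2. Named transcripts made up 41 and 38 of these. The groups described here were picked after their values had been seen, and no test was made of them. Replicate 3 was above both others in 7 of 20 GSTs, 7 of 27 class III peroxidases, 7 of 12 small heat shock proteins and 3 of 13 genes of very-long-chain fatty acids and suberin. It was below both in 5 of 18 AP2/ERF factors, 2 of 4 MAPKKKs and 2 of 6 nitrogen transporters, and also in 3 of the GSTs and 1 of the peroxidases.

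The suberin enzyme CYP86B1 (f2p35_2101_3840) shows the first kind, with 9.40, 10.6 and 36.6 FPKM at 48 h against 29.9, 33.8 and 31.97 at 0 h. Its level was 24.3 ± 0.852 FPKM after 24 h and 10.5 ± 0.344 FPKM after 120 h (SD, n = 3). Replicates 1 and 2 were thus near the level of 120 h, and replicate 3 near that of 0 h. Annexin D4 (f8p60_1364_26293), a calcium-dependent membrane-binding protein, shows the second kind, with 18.3, 17.8 and 3.93 FPKM at 48 h and 1.97, 2.05 and 2.44 at 0 h. Allene oxide synthase AOS1 (f2p28_2029_4192), of jasmonate synthesis, had 68.9, 68.6 and 21.7 FPKM at 48 h and a mean of 8.52 at 0 h. In 128 transcripts replicates 1 and 2 lay above the range of 0 h and replicate 3 did not, and in 87 they lay below it and replicate 3 did not, counting those where replicate 3 was apart by at least 1 log2 unit.

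**Figure D3:**
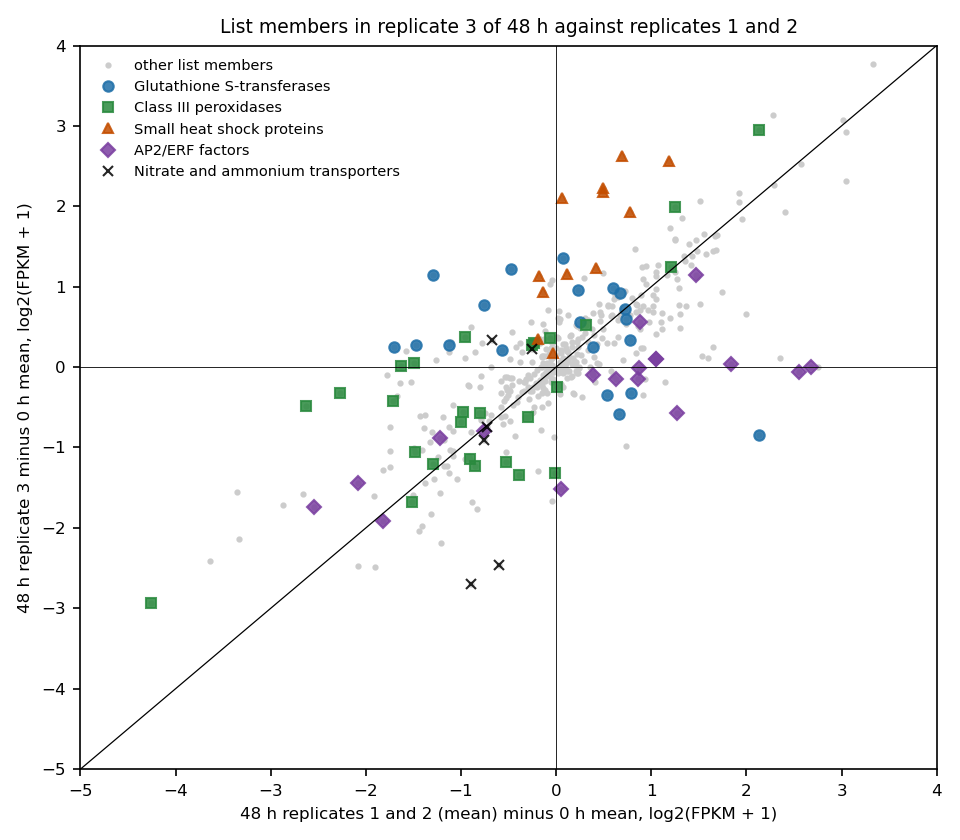
Log2(FPKM + 1) of replicate 3 of 48 h minus the mean of 0 h (vertical axis) against the same difference for the mean of replicates 1 and 2 (horizontal axis), with 1 point for each list member tested and a diagonal where the libraries are equal. Small heat shock proteins, GSTs and peroxidases include 7 members each that have replicate 3 at least 1 unit above both other libraries, while 3 GSTs, 1 peroxidase and 5 AP2/ERF factors have it as far below.

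The level of 48 h was also compared with the neighbouring times in the same fit. Against 24 h, 51 transcripts were higher and 168 lower at 48 h (0.422% and 1.39% of those tested), and against 120 h, 128 were higher and 23 lower (1.06% and 0.19%). Without replicate 3 the counts were 80 and 203 against 24 h and 195 and 26 against 120 h. These comparisons share the libraries of 48 h with the comparison to 0 h. Of the 390 transcripts up-regulated at 48 h, 48 were lower than at 24 h and 13 higher, and 94 were higher than at 120 h and 3 lower. Of the 224 down-regulated, 37 were lower than at 24 h and 9 higher, and 1 was higher than at 120 h and 7 lower.

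A wall protein and a peroxidase that rose at 48 h stood between their levels of 24 h and 120 h. The proline-rich extensin-related protein f9p60_914_11928 reached 1160 ± 47.9 FPKM after 24 h, 384.6 ± 22.1 after 48 h and 133.9 ± 24.8 after 120 h (SD, n = 3). The 48 h value was lower than that of 24 h by 1.59 on the log2 scale (adjusted p = 6.9e-08) and higher than that of 120 h by 1.53 (adjusted p = 2.2e-07). PER4 (f2p59_1311_26810) had 142.8 ± 7.02, 49.1 ± 17.6 and 13.7 ± 1.53 FPKM at these times, with differences of -1.57 (adjusted p = 2.7e-05) and 1.72 (adjusted p = 1.8e-05). Of the 20 structural wall proteins, 5 were lower at 48 h than at 24 h and 4 higher than at 120 h.

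Some transcripts that fell at 48 h were far higher at 24 h. PER5 (f4p60_1269_8729) went from 52.7 ± 3.85 FPKM after 24 h to 4.63 ± 3.26 after 48 h (SD, n = 3), a difference of -3.40 (SE 0.26, adjusted p = 1.0e-06). ACO1 (f2p53_1118_9998) had 43.6 ± 1.30 and 4.52 ± 4.33 FPKM, with -3.28 (SE 0.33, adjusted p = 1.4e-05), and extensin-3 (f6p60_1064_29342) had 166.4 ± 17.2 and 44.2 ± 22.8, with -1.995 (SE 0.23, adjusted p = 4.0e-05). PER5 was higher at 48 h than at 120 h, by 1.15 (adjusted p = 0.0125). For ACO1 and extensin-3 the differences from 120 h were -0.30 (adjusted p = 0.666) and 0.42 (adjusted p = 0.305). NRT2.1 (f2p60_1894_22575) went the other way, from 39.1 ± 0.773 FPKM at 24 h to 187.4 ± 102 at 48 h, with 2.02 (SE 0.35, adjusted p = 0.00109), and its 3 libraries of 48 h all lay above those of 24 h. The receptor PYL4 (f2p60_1246_27481) had 49.7 FPKM at 24 h and 17.6 at 120 h, with differences of -0.95 (adjusted p = 0.00818) and 0.50 (adjusted p = 0.2).

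**Figure D4:**
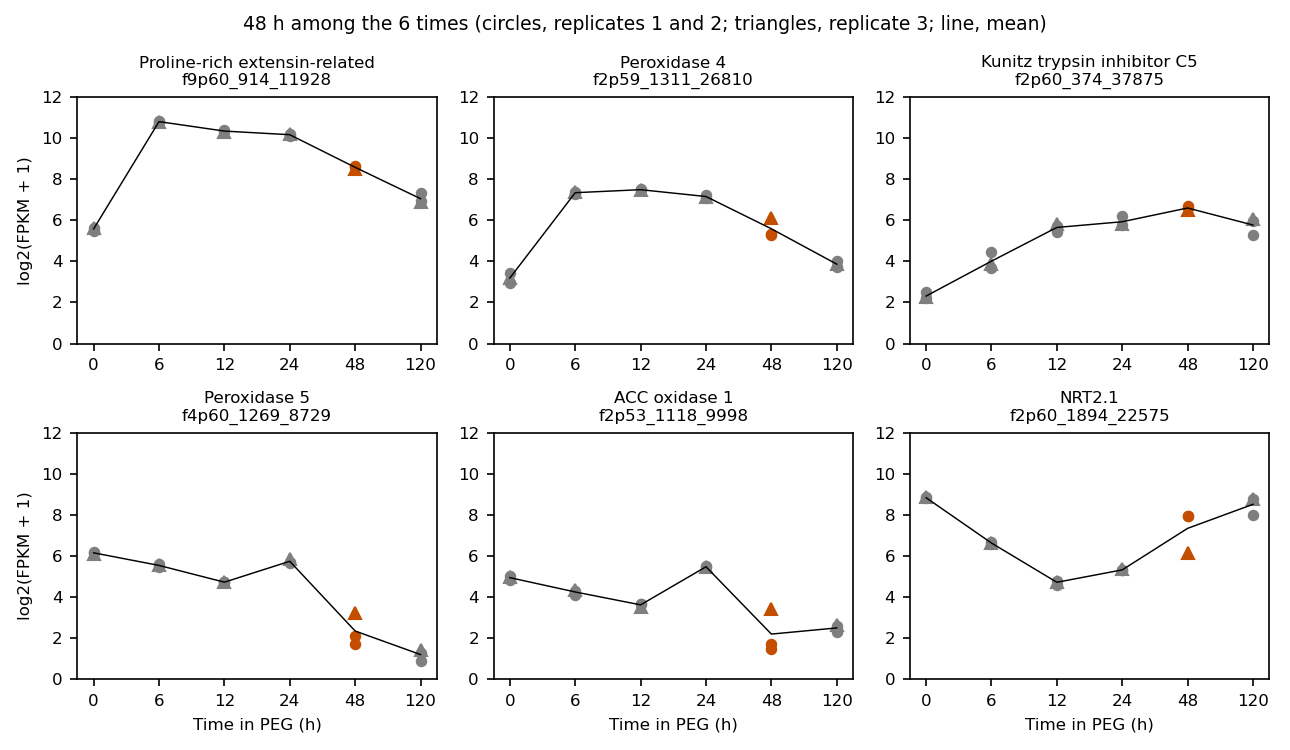
Expression of 6 transcripts at the 6 times in PEG, as log2(FPKM + 1), with 48 h in orange, circles for replicates 1 and 2, triangles for replicate 3 and a line through the means. The 48 h level of the extensin-related protein (384.6 FPKM) lies between those of 24 h and 120 h, Peroxidase 5 and ACC oxidase 1 drop between 24 and 48 h, and NRT2.1 is higher at 48 h than at 24 h in all 3 replicates.

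Against 6 h, 632 transcripts were higher and 673 lower at 48 h (5.23% and 5.57%), and against 12 h, 272 and 394 (2.25% and 3.26%). Hardly any transcript set 48 h apart from all 5 other times. By limma 0 transcripts were higher at 48 h than at every other time and 1 (0.00828%) was lower, and at an unadjusted p under 0.05 with the fold minimum 0 were higher and 3 lower. The lower one (f4p60_290_38797) has 290 bp and no name, with 12.9, 3.58 and 0 FPKM at 48 h, and it overlapped the libraries of 0 h. Without replicate 3, 7 were higher and 1 lower, and in all 8 replicate 3 lay at least 1 log2 unit outside the others. Annexin D4, the named transcript among them, was then higher by at least 1.60 on the log2 scale than at each other time (largest adjusted p = 2.6e-06), and with replicate 3 its differences from 24 h and 120 h were 0.94 (adjusted p = 0.0832) and 0.96 (adjusted p = 0.12).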

How the data were processed

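Root RNA of 18 samples was sequenced, 3 at each of 6 times in PEG. The authors mapped paired-end reads to PacBio transcripts and deposited FPKM made with RSEM 1.2.31. HTSeq 0.6.0 is also named in the submitters' processing notes. Fragment counts were not used here, so precision is given by the spread between replicates. FPKM were put on the log2 scale after adding 1. A linear model with time as its factor was fitted by limma 3.58.1 (R 4.3.3) to the 18 libraries, with 12 residual degrees of freedom, trend and robust moderation, and Benjamini-Hochberg adjustment over the 12080 transcripts. All adjusted p values are limma's, and log2 fold changes are differences of means of log2(FPKM + 1), which understates changes of low transcripts. The fit was tested on simulated data. The fold changes that the study printed were not used. At 48 h some have the opposite sign to those here, such as those of PER5, KT2 and f2p60_482_36687. Some printed values lie near the change of another transcript here. The value printed for PER5 lies near the change of PER4, and that printed for CAX7 near the change of KT2. That printed for a calmodulin-like protein lies near the change of CML38. The opposite signs may thus not be a difference in the same transcript, and the reason was not tested.

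Named transcripts are the 10 largest rises and the 10 largest falls with a name and no overlap, up to 3 DEGs of each list by size of change, and 12 that the study measured by qRT-PCR. Others were named after their values were seen. Members, rules and the 40 lists (24 from the study's tables, 16 from its annotation) were chosen with earlier results of these data known. Alternatives changed the pseudocount, filter, libraries fitted, moderation, library weights, scaling, fold minimum, replicate block or left out a replicate. Python 3.11.15, pandas 2.3.3, numpy 2.4.6 and matplotlib served for tables and figures.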

Additional observations from a re-analysis of the deposited data

Results flagged for a closer look

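The expression of 48 h differed from that of both neighbouring times by the test of the difference itself. Against 24 h, 51 transcripts were higher and 168 lower at 48 h, and against 120 h, 128 were higher and 23 lower, each with an adjusted p under 0.05 and a log2 difference of at least 1. Among the low-oxygen genes, LBD41 (f5p60_1318_8262) had 26.4 ± 14.2 FPKM at 48 h and 71.7 ± 8.18 at 24 h (SD, n = 3), a log2 difference of -1.52 (limma adjusted p = 0.00119), and RAP2-3 (f3p60_1327_26651) had 47.8 ± 17.0 and 130.3 ± 15.8 FPKM, with -1.47 (limma adjusted p = 3.2e-05). The distance of replicate 3 of 48 h from its group was described and not tested.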

How the results depend on the processing

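The DEG counts of 390 and 224 kept within 1.5 times under every alternative but the fold minimum. Adjusted p alone gave 1925 and 1773, and a log2 fold change of at least 1.5 gave 183 and 78. Leaving out 1 replicate of 0 h or 48 h gave 350 to 461 and 204 to 263. By the same fold rules the list members called were 142 and 26 up and 124 and 21 down (66 and 56 reported), and 56 to 72 up and 49 to 64 down with a replicate left out. Against 24 h, array weights gave 111 higher and 326 lower, adjusted p alone 1095 and 1353, and 1.5 gave 9 and 69, with 39 to 80 and 163 to 203 when a replicate was left out. Against 120 h these were 250 and 47, 798 and 411, and 63 and 5, with 107 to 195 and 22 to 26. Array weights gave replicate 3 of 48 h a weight of 0.168. Transcripts apart from every other time numbered 16 higher and 15 lower by adjusted p alone, 3 higher with array weights, 1 higher with no filter, 2 lower with the replicate block, and 0 to 7 higher and 0 to 3 lower with a replicate left out. The cause of these shifts was not tested.

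Of the 86 transcripts of the naming rule, 80 were DEGs. Changes of the fold minimum were not counted for them. In every other alternative that tested them, 68 of the 86 kept their direction and call. The filter of 5 FPKM in 3 libraries left out 7 of the 86. No DEG changed direction. The change of GSTXC ran from -0.7537 to 0.0124 with a replicate left out, turning to 0.0065 without 48 h replicate 1 and 0.0124 without 48 h replicate 2. That of SODC ran from -0.1432 to 0.265, turning to -0.0191 without 0 h replicate 2, and it was -0.044 with array weights. Neither was a DEG. The replicate numbers gave no sign of pairing, which does not exclude it. The deviations of same-numbered libraries of 0 h and 48 h had correlations of -0.04, -0.08 and -0.01. Those of differently numbered libraries ran from -0.02 to 0.06. With the replicate block the counts were 391 and 222, and the call of ILR3 was lost (adjusted p = 0.0556). Depth per library is not known here.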
